A study of Mus musculus with 4 samples.

Results

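The *Dlx*, *Msx* and other border regulators described here are 9 genes of the 31055 in the count matrices, found by matching the gene symbols *Dlx3*, *Dlx5*, *Dlx6*, *Msx1*, *Msx2*, *Gbx2*, *Maf*, *Trp63* and *Fhl2*. All 9 were detected. The matrices come from scRNA-seq of the caudal part of mouse embryos at E8.5, either wild type (WT) or *Grhl3*-null, from intercrosses of *Grhl3*+/- mice on a pure C57BL/6 background. The pools held 5 embryos for WT and 3 for the null genotype, and each pool gave 2 libraries, its replicates. Each p-value given here therefore compares 2 pools through repeated libraries and holds no spread between embryos. The values are unique molecular identifier (UMI) counts, in which each captured transcript is counted once.

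At the edge of the neural plate, ectoderm is divided into neural plate, neural plate border and surface ectoderm by graded BMP, Wnt and Fgf signals. Homeobox genes of the *Dlx*, *Msx* and *Gbx* families are among the first genes switched on or off across this edge, and the border gives rise to neural crest, while the lateral ectoderm becomes epidermis under the control of p63, the product of *Trp63*. GRHL3 is a transcription factor of the surface ectoderm and border that is required for closure of the neural tube.

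*Dlx3*, *Dlx5* and *Dlx6* encode Distal-less homeodomain activators. *Dlx5* and *Dlx6* are convergently transcribed neighbours on chromosome 6 of mm10, from 6877805 to 6882085 on the minus strand and from 6863334 to 6868568 on the plus strand, and *Dlx3* lies on chromosome 11 from 95120119 to 95125296. *Msx1* and *Msx2*, muscle-segment homeobox repressors induced by BMP, lie on chromosome 5 from 37820485 to 37824583 and on chromosome 13 from 53466884 to 53473074. *Gbx2*, a gastrulation brain homeobox gene of the posterior neural plate, lies on chromosome 1 from 89927956 to 89931179, and *Fhl2*, which encodes a LIM-domain cofactor with no DNA-binding homeodomain, lies on the same chromosome from 43123074 to 43196984. *Maf* encodes a basic leucine zipper factor and lies on chromosome 8 from 115682942 to 115707794. *Trp63* spans chromosome 16 from 25683763 to 25892102. The *Dlx6* locus overlaps *Dlx6os1* and *Dlx6os2*, *Gbx2* overlaps *D130058E05Rik*, *Maf* overlaps *Gm15655*, *Trp63* overlaps *Gm24928* and *Gm27005*, and *Fhl2* overlaps *Gm8210*, so the counts of these 5 genes are uncertain where reads could fall to either gene.

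RefSeq promoters, 250 bases before to 50 bases after a transcription start, matched 4 of the 9 genes on GRCm38.p6. They are shown because *Msx1* and *Msx2* varied together over cells and *Gbx2* moved against *Fhl2* in the neuroepithelium. Each window was searched on both strands for AACCGGTT, a core that grainyhead factors bind (in 0.146% of 32817 mouse promoters), CTTTGAT of TCF/LEF factors (3.73%), GGCGCC of SMAD factors (11.9%), GCCNNNGGC of AP-2 factors (16.6%) and the E-box CACGTG (7.15%), and capitals mark every match. Matches of different motifs could overlap, and none did in the windows shown. *Msx1* is read from chr5:37824536-37824835, *Msx2* from chr13:53472731-53473030, *Gbx2* from chr1:89931127-89931426 and *Fhl2*, at the more upstream of its starts, from chr1:43196712-43197011, all on the minus strand and written 5′ to 3′.
Msx1: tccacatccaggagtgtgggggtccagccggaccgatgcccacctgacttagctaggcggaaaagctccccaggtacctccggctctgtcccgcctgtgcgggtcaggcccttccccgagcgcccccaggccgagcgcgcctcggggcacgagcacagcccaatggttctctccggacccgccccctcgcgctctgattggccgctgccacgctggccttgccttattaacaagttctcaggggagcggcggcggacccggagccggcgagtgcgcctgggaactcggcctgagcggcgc
Msx2: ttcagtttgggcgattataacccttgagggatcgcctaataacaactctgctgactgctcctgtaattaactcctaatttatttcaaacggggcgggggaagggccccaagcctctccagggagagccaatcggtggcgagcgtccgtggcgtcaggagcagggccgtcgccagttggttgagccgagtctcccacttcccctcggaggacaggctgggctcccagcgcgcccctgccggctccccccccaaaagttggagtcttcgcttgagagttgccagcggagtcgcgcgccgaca
Gbx2: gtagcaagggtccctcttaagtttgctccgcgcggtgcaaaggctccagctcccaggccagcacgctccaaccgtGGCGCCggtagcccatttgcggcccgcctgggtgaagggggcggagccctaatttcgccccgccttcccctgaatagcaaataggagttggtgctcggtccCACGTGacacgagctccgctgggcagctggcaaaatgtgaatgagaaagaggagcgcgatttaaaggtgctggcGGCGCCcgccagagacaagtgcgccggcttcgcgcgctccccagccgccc
Fhl2: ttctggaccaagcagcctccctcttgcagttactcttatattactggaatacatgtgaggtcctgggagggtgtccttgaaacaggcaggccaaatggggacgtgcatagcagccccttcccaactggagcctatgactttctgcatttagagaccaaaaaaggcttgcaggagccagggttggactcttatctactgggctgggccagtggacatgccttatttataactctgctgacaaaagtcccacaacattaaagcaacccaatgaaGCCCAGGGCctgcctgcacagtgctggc
The *Gbx2* window held GGCGCC and CACGTG and the *Fhl2* window held GCCNNNGGC, while those of *Msx1* and *Msx2* held none of the 5 motifs. The window of the other *Fhl2* start, chr1:43163912-43164211, is not shown and held none of them either.

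Of 24239 cell barcodes, 20198 passed the filters of the study, with 4781 to 5459 cells and a median of 33391 to 38070 UMIs per cell in a library. Any pair of libraries shared 7 to 16 barcodes. The cells formed 16 clusters, named from markers as "like" a cell type, and 14 had enough cells to test. The ectoderm-like class held 996 cells (250 and 221 WT, 262 and 263 null), led by *Wnt6*, *Bhlha9* and *Sfn*. *Tfap2a* and *Trp63* were also among its leading genes, as were 14 of its 15 markers. The markers of cell types came from the study's own clusters of these data, so their return names a class and is no test. *Grhl3* checked the labels: WT libraries had 435 and 325 UMIs of *Grhl3* in this class, and null libraries had 3 and 4. *Tfap2a*, its AP-2 marker, did not pass the test between the genotypes (log2 fold change -0.06, adjusted p = 0.55 by edgeR). From Y-linked genes and *Xist*, male cells made up 52 and 55 of the WT and 145 and 125 of the null ectoderm-like cells, so the sexes of the pooled embryos were unequal between the genotypes.

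Levels are given as CPM, which scales the UMIs of a gene to all UMIs of a class in a library, and as mean ± SD of 2 libraries. *Trp63* was the most restricted of the 9 genes: its level was 59.6 ± 0.420 CPM in WT ectoderm-like cells, 28.1-fold that of the next class, gut-like cells at 2.12 ± 0.280 CPM. The ectoderm-like class, 4.45% of the WT cells, held 93.1% of all *Trp63* UMIs in WT and 92.6% in null cells. *Dlx3* had 28.9 ± 1.02 CPM there against 6.65 ± 2.86 CPM in the germ cell-like class, *Dlx5* had 41.2 ± 1.98 against 6.37 ± 4.09 CPM in the same class, and *Dlx6* had 5.60 ± 0.289 against 0.495 ± 0.256 CPM in the unnamed class led by *Lefty2* and *Ppp1r14a*. For these 3 genes, no other class overlapped the ectoderm-like libraries. The germ cell-like class held only 14 and 5 WT cells with 576051 and 216033 UMIs, so its *Dlx3* and *Dlx5* levels rest on few UMIs. The level of *Dlx6* in the *Lefty2*/*Ppp1r14a* class, with 3184272 and 2958593 WT UMIs, does too. Since the classes were formed from all genes, these orders are descriptions.

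*Msx1* and *Msx2* were broad genes with their highest level in the ectoderm-like class. *Msx1* had 486 ± 47.2 CPM there, followed by the *Tbx4*/*Capn6* mesenchyme-like class at 249 ± 20.9 CPM and the *Prrx1*/*Hand2* mesenchyme-like class at 210.2 ± 4.69 CPM. *Msx2* had 108 ± 2.26 CPM, followed by the germ cell-like class at 72.9 ± 4.91 CPM and the *Tbx4*/*Capn6* class at 71.9 ± 8.92 CPM, which overlapped each other. The ectoderm-like class held 20.9% of WT *Msx1* and 23.4% of WT *Msx2* UMIs.

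*Fhl2* had 47.9 ± 10.4 CPM in ectoderm-like cells, above the mesenchyme 2-like class at 30.8 ± 3.92 CPM and the endothelium-like class at 30.6 ± 1.18 CPM. *Maf* did not mark the ectoderm: its 14.8 ± 1.57 CPM overlapped the 13.4 ± 1.16 CPM of intermediate mesoderm-like cells and the 12.6 ± 4.00 CPM of the *Tbx4*/*Capn6* class. *Gbx2* had the opposite pattern. Its level was 51.6 ± 0.940 CPM in neuroepithelium-like cells, 45.0 ± 0.679 CPM in somitic and 44.9 ± 1.11 CPM in neuromesodermal progenitor-like cells, and 5.59 ± 0.619 CPM in ectoderm-like cells, rank 12 of the 16 classes. Only 1.09% of WT *Gbx2* UMIs lay in the ectoderm-like class.

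**Figure D1:**
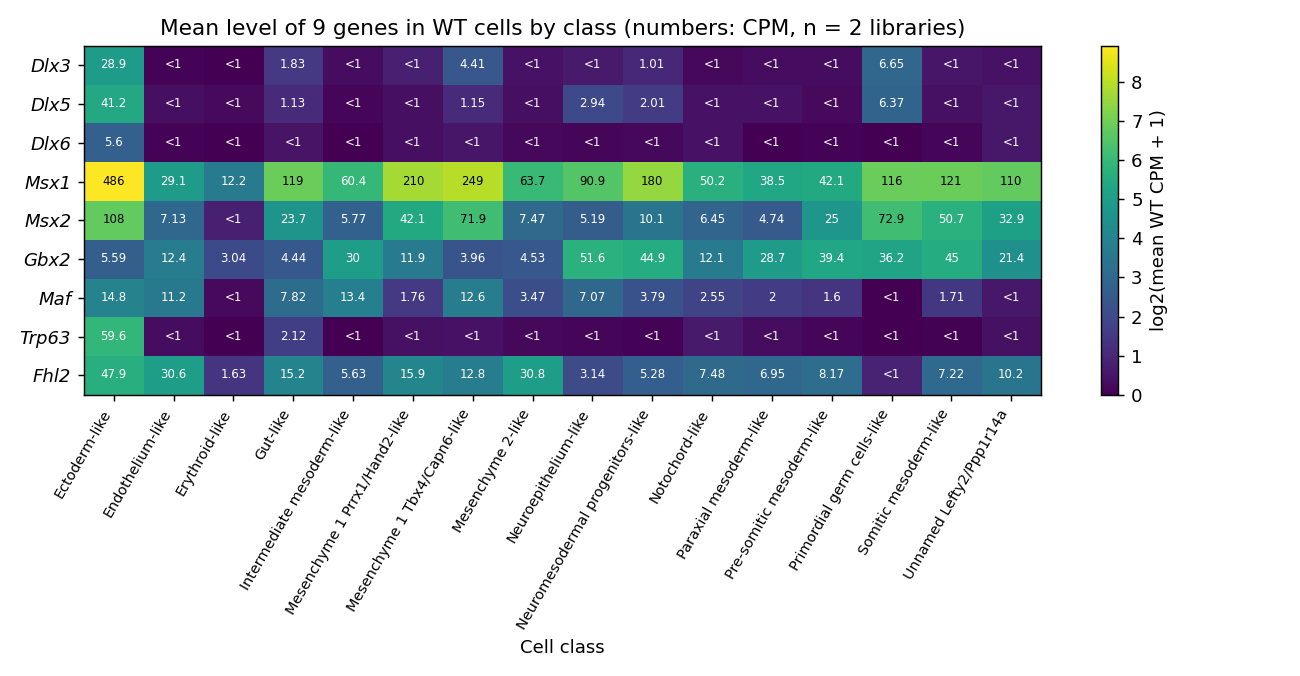
Mean CPM of each gene (vertical axis) in each cell class (horizontal axis) in WT cells, n = 2 libraries, coloured on a log2(CPM + 1) scale with the CPM written in each field and levels under 1 shown as <1. *Trp63*, *Dlx3* and *Dlx5* have their brightest field in the ectoderm-like column. *Dlx6* is dark there too, at 5.60 CPM, and under 1 CPM in every other column. *Msx1* and *Msx2* are bright in many columns. *Gbx2* is at 5.59 CPM in the ectoderm-like and at 51.6 CPM in the neuroepithelium-like column.

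The share of ectoderm-like cells with at least 1 UMI gave the same picture. *Msx1* was found in 92.8% and 94.1% of WT cells in the 2 libraries, *Msx2* in 74.4% and 75.1%, *Trp63* in 66.4% and 68.8%, *Dlx3* in 62.8% and 62.4%, *Dlx5* in 60.4% and 60.6% and *Fhl2* in 52.0% and 51.6%. *Maf* was found in 26.8% and 29.0%, *Gbx2* in 20.4% and 16.3% and *Dlx6* in 18.8% and 18.6%. The exact 95% Clopper-Pearson interval of *Dlx5* in the first library ran from 54.0% to 66.5%, and such intervals cover counting error only. The erythroid-like class, which should lack these genes, had *Dlx3*, *Dlx6* and *Trp63* in 0 of 68 WT cells of the first library, which allows a share of up to 4.41% of cells with a UMI (3 counts of the total), and *Msx1* in 22.1%, with a median depth of 40083 against 41464 UMIs in ectoderm-like cells. *Gbx2* was found in 13.2% and 6.0% of WT and 5.0% and 1.49% of null erythroid-like cells, below the 20.4% and 16.3% of WT and the 21% and 17.9% of null ectoderm-like cells. In WT replicate 1 the exact intervals of these classes overlapped (6.23% to 23.6% and 15.6% to 25.9%), as in WT replicate 2 (1.25% to 16.5% and 11.7% to 21.8%). *Maf* and *Fhl2* were found in 22.4% and 52.6% of endothelium-like cells of WT replicate 1, close to their ectoderm-like shares. After each cell was thinned to 7500 UMIs, the shares in WT ectoderm-like cells were lower, at 78.8% for *Msx1*, 42.7% for *Msx2*, 29.7% for *Trp63*, 22.7% for *Dlx5* and 18.7% for *Dlx3*.

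The genotypes were compared to ask how these genes changed in ectoderm without GRHL3. In ectoderm-like cells, *Dlx3* and *Trp63* were lower in null cells, and the other 7 genes did not pass the test. This is 2 of 9 lower, against 8.78% of 12590 tested genes, and 0 of 9 higher, against 6.41%. At an unadjusted p under 0.05, *Gbx2* would be counted as higher. DESeq2 called 0 of the 9 genes in either direction, against 4.37% of 12575 genes. The median log2 fold change of the 9 genes was -0.02, and that of all tested genes was 0.00073.

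*Dlx3*, a *Dlx* gene of early epidermis, had 28.2 and 29.6 CPM in the WT libraries and 23.3 and 19.2 CPM in the null libraries. The libraries did not overlap, and the log2 fold change was -0.47 ± 0.098 (SE, adjusted p = 0.0013 by edgeR). The share of cells with a *Dlx3* UMI was 56.5% and 46.8% in the null libraries, and after thinning it was 18.4% and 19% in WT against 12.6% and 11% in null cells. With DESeq2, *Dlx3* had nearly the same log2 fold change, -0.48, with an adjusted p of 0.079.

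*Trp63*, whose product commits ectoderm to epidermis, had 59.3 and 59.9 CPM in WT and 51.3 and 52.9 CPM in null libraries. The difference was small, with a log2 fold change of -0.23 ± 0.061 (SE, adjusted p = 0.010 by edgeR), and the libraries did not overlap. It missed the threshold with DESeq2 (adjusted p = 0.33) and without null replicate 1 (adjusted p = 0.093). Of the 12 tested genes in a list of p63-linked epidermal genes, 2 were lower, against 8.78% of all genes, and 0 higher, with a median of -0.08. These were *Perp*, a desmosome component (log2 fold change -0.66), and *Sfn*, an epidermal 14-3-3 protein (-1.82).

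*Fhl2* was the least certain of the 9 genes. Its level was 55.2 and 40.5 CPM in the WT libraries and 28.3 and 37.7 CPM in the null libraries. The ranges did not overlap, but the WT libraries differed from each other by more than the closest WT and null libraries did. With robust estimation, which allows such genes a larger spread, the log2 fold change of -0.59 ± 0.26 (SE) had an adjusted p of 0.31. Without robust estimation the adjusted p was 0.0016, and with any 1 library left out it was at most 0.0034, at log2 fold changes from -0.79 to -0.35.

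For *Dlx5* and *Dlx6* no difference passed the test in the whole class. *Dlx5* had 42.6 and 39.8 CPM in WT and 38.6 and 45.0 CPM in null libraries (log2 fold change -0.02 ± 0.078, adjusted p = 0.88 by edgeR). *Dlx6* had 5.80 and 5.39 against 6.05 and 7.04 CPM (0.18 ± 0.17, adjusted p = 0.56). The null libraries enclosed the WT values of *Dlx5* and lay above those of *Dlx6*. In cells gated on *Tfap2a* and *Epcam* instead of by cluster, both passed as higher, *Dlx5* with 0.31 (adjusted p = 0.0091 by edgeR) and *Dlx6* with 0.63 (adjusted p = 0.036). *Epcam* itself was lower in null ectoderm-like cells (log2 fold change -0.37, adjusted p = 7.2e-06 by edgeR). The part of this in calls from gated cells was not tested.

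*Msx1* had 453 and 519.5 CPM in WT and 447 and 477 CPM in null libraries, which overlapped (log2 fold change -0.11 ± 0.059, adjusted p = 0.24 by edgeR). *Msx2* had 107 and 109.9 CPM in WT and 114 and 125 CPM in null libraries (0.10 ± 0.055, adjusted p = 0.26). *Gbx2* had 6.03 and 5.15 against 8.62 and 6.43 CPM (0.40 ± 0.18, adjusted p = 0.14). *Maf* had 13.6 and 15.9 against 18.4 and 14.3 CPM (0.12 ± 0.13, adjusted p = 0.59). *Gbx2* passed as higher with doublets removed (0.74, adjusted p = 0.011 by edgeR), and *Maf* in the cells gated on *Tfap2a* and *Epcam* (0.71, adjusted p = 0.00027).

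**Figure D2:**
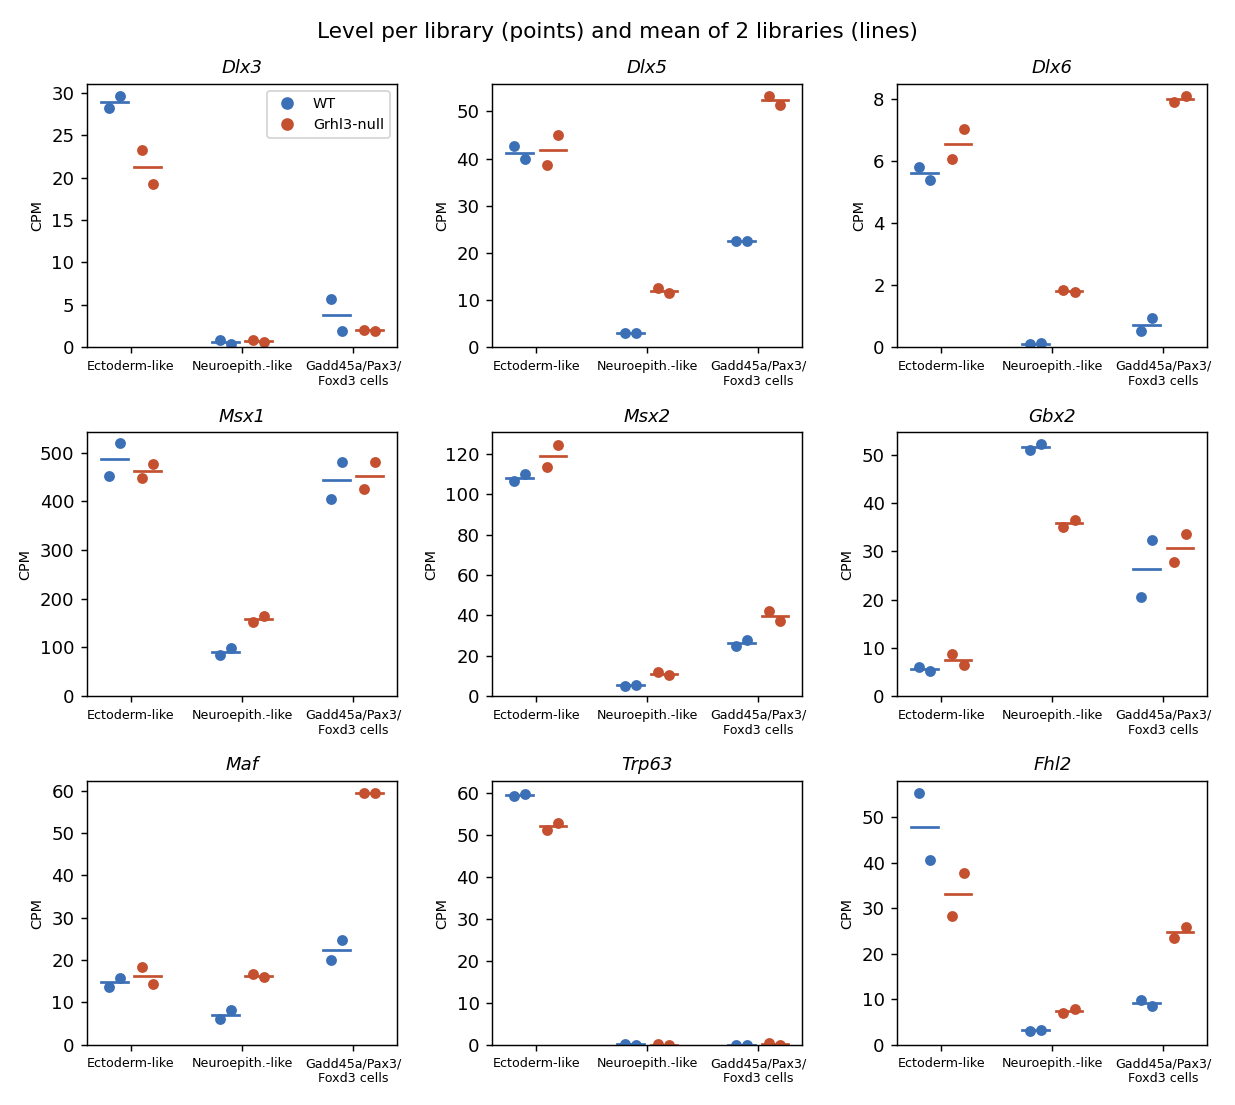
CPM of each gene (vertical axes, from 0) in ectoderm-like cells, neuroepithelium-like cells and the cells led by *Gadd45a*, *Pax3* and *Foxd3* (horizontal axis). Points are libraries, lines are the means of the 2 WT or 2 null libraries. *Dlx3* and *Trp63* are lower in the null ectoderm-like cells, while *Dlx5*, *Dlx6*, *Maf* and *Fhl2* of the null libraries lie above both WT libraries in the other cells.

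Other genes of the border were counted from fixed lists, to be read against the 8.78% of all genes lower and 6.41% higher in this class. Of 13 tested border partners in ectoderm-like cells, 2 were lower (*Tfap2c* with a log2 fold change of -0.93 and *Pax7* with -1.18) and 2 higher (*Pax3* with 0.32 and *Eya1* with 0.60), with a median of -0.06. *Tfap2c* encodes an AP-2 factor, and *Pax3* and *Pax7* encode paired-box factors of border and crest. Among the paralogues of the members reported here, *Fhl1* (-0.34) was lower. *Msx3*, the neural *Msx* gene, was higher with 0 and 0.161 CPM in WT and 1.13 and 1.65 CPM in null libraries. It passed the filter on low counts only through its null libraries, so its call was close to fixed in advance. Of 11 BMP ligands and early targets, *Bmp2* (0.31), *Bmp4* (0.36) and the target *Id1* (0.24) were higher and 0 were lower, with a median of 0.14. Of 5 tested neural crest specifiers, *Sox9* (1.11) and *Twist1* (0.27) were higher.

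Other measures moved with genotype in the same cells. The 12 posterior *Hox* genes summed to 72.7 and 58.0 CPM in WT and to 28.6 and 27.2 CPM in null ectoderm-like cells. Of 9 tested genes induced by dissociation, 5 were lower and 0 higher in null cells. Of 9 markers of caudal mesoderm or streak, 4 were higher and 0 lower, and the list summed to 489.5 and 464.5 CPM in WT and 630.5 and 627.9 CPM in null cells. Of 15 markers of mesenchyme 1, 6 were higher and 0 lower, with sums of 1101 and 1103 against 1335 and 1424 CPM. The 4 Y-linked genes were all higher, summing to 36.3 and 39.8 CPM in WT and 84.4 and 77.1 CPM in null cells. The part of these measures in the differences of *Dlx3*, *Trp63* and *Fhl2* was not tested, except that male and female cells were compared separately.

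Within each sex, *Dlx3* and *Trp63* were lower in null cells. In male cells, 6 of the 9 genes were lower (*Dlx3*, *Dlx5*, *Msx1*, *Msx2*, *Trp63* and *Fhl2*) against 7.25% of all genes, and 1 was higher (*Gbx2*) against 7.99%. In female cells, 2 were lower (*Dlx3* and *Trp63*) against 9.03%, and 2 were higher (*Msx1* and *Msx2*) against 6.17%. *Dlx3* changed by -0.70 in male and -0.36 in female cells and *Trp63* by -0.40 and -0.29 on the log2 scale, and neither pair of effects differed by the test of the difference (adjusted p = 0.26 and 0.71 by edgeR).

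*Msx1* and *Msx2* moved in opposite directions by sex. *Msx1* had 611 and 699.5 CPM in male WT and 374 and 404 CPM in male null cells, but 407 and 459 CPM in female WT and 545 and 563 CPM in female null cells. *Msx2* had 168 and 137 against 95.9 and 114 CPM in male cells, and 89.1 and 101 against 135 and 137 CPM in female cells. In neither sex did the genotypes overlap for these genes.

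The male effect minus the female effect was -1.04 ± 0.072 for *Msx1* (adjusted p = 5.0e-25 by edgeR), -0.99 ± 0.13 for *Msx2* (adjusted p = 2.9e-05) and -0.65 ± 0.15 for *Dlx5* (adjusted p = 0.00062). These 3 of 9 genes passed against 14.4% of all genes. *Dlx5* itself had a log2 fold change of -0.49 in male cells, which passed, and of 0.16 in female cells that did not pass. Each pool held few embryos of a sex, so a difference between the sexes and one between embryos cannot be told apart.

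**Figure D3:**
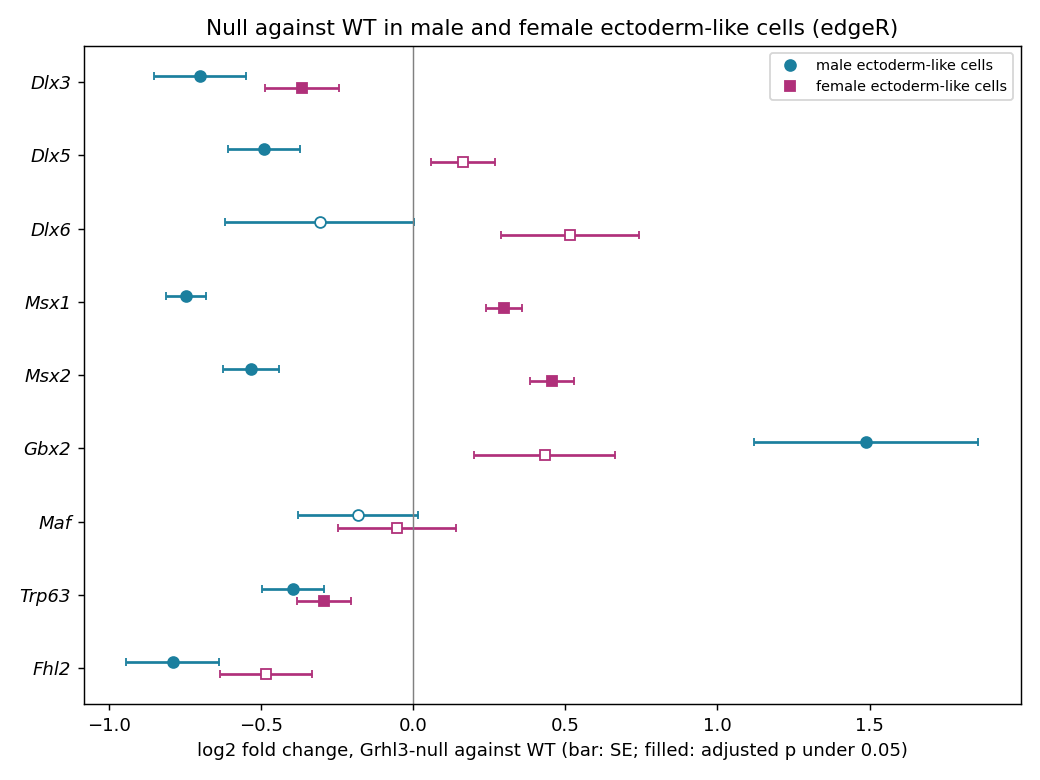
Log2 fold change of null against WT (horizontal axis, bars are SE) of each gene (vertical axis) in male (circles) and female (squares) ectoderm-like cells, 2 libraries per genotype, filled where the adjusted p was under 0.05. *Dlx3* and *Trp63* lie left of 0 in both sexes, while *Msx1* and *Msx2* lie left of 0 in male and right of 0 in female cells.

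The neuroepithelium-like class (537 and 499 WT, 619 and 673 null cells) was compared in the same way. Of the 8 genes tested there, 6 were higher in null cells, against 11.3% of all genes, and *Gbx2* was lower, against 13.3%. *Dlx6*, among the 6, passed the filter on low counts only through its null libraries, so its call was close to fixed in advance. *Dlx5* rose from 2.99 and 2.89 CPM to 12.5 and 11.4 CPM, a log2 fold change of 2.00 ± 0.13 (SE, adjusted p = 2.2e-11 by edgeR). *Dlx6* gave 2 and 3 WT against 48 and 47 null UMIs, a ratio of 16.2 with an exact counting interval of 6.70 to 51.0. *Maf* rose from 6.02 and 8.12 to 16.7 and 16.0 CPM (1.19 ± 0.11, adjusted p = 2.4e-08).

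*Fhl2* rose from 3.12 and 3.17 to 6.95 and 7.77 CPM (log2 fold change 1.20 ± 0.14, adjusted p = 5.1e-07 by edgeR). *Msx1* rose from 83.3 and 98.6 to 152 and 164 CPM (0.77 ± 0.082, adjusted p = 0.0019) and *Msx2* from 5.01 and 5.37 to 11.9 and 10.2 CPM (1.06 ± 0.12, adjusted p = 3.3e-07). *Gbx2* fell from 51.0 and 52.3 to 35.1 and 36.5 CPM (-0.55 ± 0.048, adjusted p = 5.1e-09). *Dlx3*, under 1 CPM in every library, did not pass (adjusted p = 0.61), and *Trp63*, with 4 and 0 WT and 2 and 0 null UMIs, was not tested.

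At a finer clustering, a cluster led by *Gadd45a*, *Pax3* and *Foxd3* held 48 and 40 WT and 137 and 134 null cells, all but 1 of them neuroepithelium-like. No name was given to it by its markers. In these cells 5 of 7 tested genes were higher in null libraries, against 2.03% of all genes. *Dlx6*, among the 5, again passed the filter on low counts only through its null libraries.

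*Dlx5* had 22.6 and 22.5 CPM in WT libraries and 53.4 and 51.3 CPM in null libraries (log2 fold change 1.19 ± 0.15, adjusted p = 2.0e-07 by edgeR). *Maf* had 19.99 and 24.8 CPM in WT and 59.6 and 59.4 CPM in null libraries (1.38 ± 0.14, adjusted p = 3.8e-09). *Fhl2* had 9.74 and 8.43 against 23.5 and 25.9 CPM (1.42 ± 0.23, adjusted p = 3.0e-05). For these 3 genes the genotypes did not overlap.

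*Msx2* had 24.6 and 27.6 against 42.0 and 37.3 CPM (log2 fold change 0.57 ± 0.15, adjusted p = 0.019 by edgeR), and *Dlx6* gave 1 and 2 UMIs against 47 and 46 UMIs, a ratio of 10.9 with an exact interval of 3.61 to 53.7. *Msx1*, at 405 and 480.2 against 425 and 479.8 CPM, had a log2 fold change of 0.00 ± 0.073, and *Gbx2* one of 0.18 ± 0.17 (adjusted p = 0.99 and 0.68). *Trp63* had 2 UMIs in 1 null library and 0 in the other 3 libraries. In the same cells the 15 surface ectoderm markers summed to 724 and 687 CPM in WT and 990.4 and 1109 CPM in null libraries, with 10 of 14 tested higher, and the neural crest specifiers to 122 and 167 against 212 and 262.5 CPM. The part of cell numbers or of such markers in the differences was not tested.

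Without those cells, the neuroepithelium-like class had 3 of 6 tested genes lower, against 13.1% of all genes, and 1 higher, against 11.5%. *Dlx5*, among the 3, passed the filter on low counts only through its WT libraries. *Dlx5* was at 1.15 and 0.763 CPM in WT and 0.30 and 0.435 CPM in null libraries, and *Maf* at 4.71 and 6.31 against 3.90 and 4.01 CPM, both now lower (log2 fold changes -1.39 and -0.49). *Gbx2* kept its decrease (-0.55), and *Msx1* its increase, from 53.1 and 57.2 to 70.2 and 77.7 CPM (0.41). *Msx2* (-0.13) and *Fhl2* (-0.10) did not pass.

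**Figure D4:**
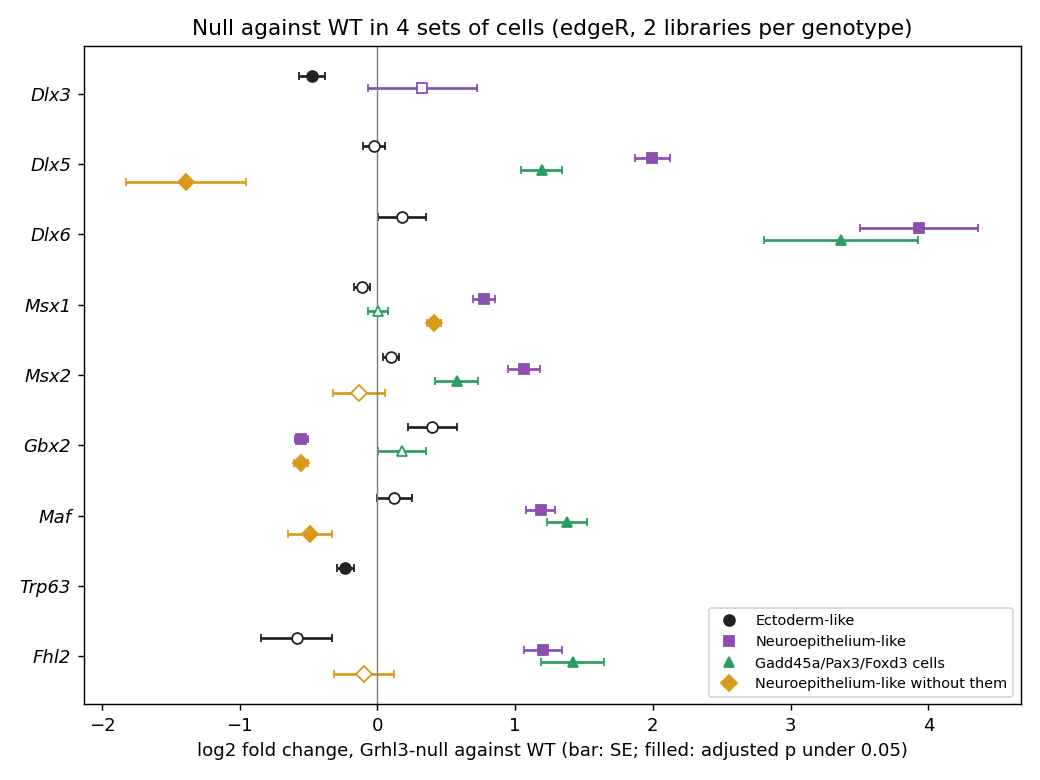
Log2 fold change of null against WT (horizontal axis, bars are SE) of each tested gene (vertical axis) in 4 sets of cells, 2 libraries per genotype, filled where the adjusted p was under 0.05. The increases of *Dlx5* (2.00), *Maf* (1.19) and *Fhl2* (1.20) in the neuroepithelium-like class are not seen once the *Gadd45a*/*Pax3*/*Foxd3* cells are left out, while those of *Msx1* and the decrease of *Gbx2* are.

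The same class differed between the genotypes in other ways. Posterior *Hox* genes summed to 187 and 198 CPM in WT and to 1.54 and 0.909 CPM in null neuroepithelium-like cells, and 10 of 13 tested border partners and 6 of 7 neural crest specifiers were higher in null cells with 0 lower, against 11.3% of all genes higher. Male cells were 62 and 72 of the WT and 419 and 472 of the null cells. *Dlx5*, *Msx1* and *Msx2* rose in both sexes (log2 fold changes 1.21, 0.26 and 0.79 in male and 3.67, 1.55 and 2.06 in female cells). *Maf* (2.49) and *Fhl2* (2.52) rose in female cells and had 0.15 and 0.27 in male cells, which did not pass, and *Gbx2* fell in male cells (-0.74) with -0.01 in female cells. *Dlx3* and *Dlx6* also passed in female cells, where 7 of 8 tested genes were higher, against 13% of all genes. Their calls rest on few WT cells, with *Dlx3* in 13 and 8 and *Dlx6* in 2 and 3 WT cells of the class. Female *Gadd45a*/*Pax3*/*Foxd3* cells were 31 and 28 in WT and 43 and 39 in null libraries. All female cells of the class were 451 and 395 in WT and 88 and 84 in null libraries. Whether the sexes differed was not tested in this class, nor was the part of axial position or of the number of *Gadd45a*/*Pax3*/*Foxd3* cells per embryo.

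The effect in ectoderm-like cells differed from that in neuroepithelium-like cells for 7 of the 9 genes, against 13.8% of all genes, by a test of the interaction with the library as a block. Ectoderm minus neuroepithelium, the log2 differences were -3.74 ± 0.50 for *Dlx6*, -2.03 ± 0.15 for *Dlx5*, -1.79 ± 0.16 for *Fhl2*, -1.08 ± 0.15 for *Maf*, -0.97 ± 0.12 for *Msx2* and -0.89 ± 0.043 for *Msx1*, and 0.94 ± 0.17 for *Gbx2*. *Dlx3* (-0.82 ± 0.37, adjusted p = 0.14 by edgeR) and *Trp63* did not pass. The *Dlx6* difference rests on 5 WT against 95 null UMIs in neuroepithelium-like cells. That class included the *Gadd45a*/*Pax3*/*Foxd3* cells (48 and 40 WT, 136 and 134 null), without which *Dlx5*, *Maf*, *Fhl2* and *Msx2* showed no increase there. The interaction was not tested without those cells. Against all other cells together, 6 of 9 passed, against 11.6% of all genes: *Dlx3* (-1.08), *Dlx5* (-1.29), *Dlx6* (-1.46), *Msx1* (-0.39), *Gbx2* (0.65) and *Maf* (-0.77). *Dlx3* in all other cells was at 0.712 and 0.600 CPM in WT and 0.968 and 1.04 CPM in null libraries, where it was higher (log2 fold change 0.58, adjusted p = 0.0051). Taken singly, *Dlx3* was higher in 0 of the 6 other classes where it was tested, against 5.8% of all tests. The other cells differed in make-up, with presomitic mesoderm-like cells at 487 and 463 in WT and 3 and 4 in null libraries. The *Tbx4*/*Capn6* class held 65 and 42 WT and 159 and 139 null cells. The part of these cell numbers was not tested. Leaving out null replicate 1 ended the call of *Gbx2* in both comparisons (adjusted p = 0.056 against neuroepithelium and 0.33 against all other cells), and so did WT replicate 2 against all other cells (0.11), while without WT replicate 1 *Dlx6* was lost against all other cells (0.094) and *Dlx3* passed against neuroepithelium (0.044). *Fhl2* passed against all other cells without WT replicate 2 (-0.76, adjusted p = 4.7e-09).

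Over the 13 other tested classes, neuroepithelium included, the 9 genes gave 74 tests, of which 5 were lower, against 6.65% of all tests, and 16 higher, against 5.8%. *Msx1* was higher in 6 of 13 classes and lower in 0. Its increases outside the neuroepithelium-like class ranged from 0.10 in neuromesodermal progenitor-like cells (177 and 183 to 189 and 201 CPM) to 0.60 in paraxial mesoderm-like cells (34.1 and 42.9 to 57.9 and 61.1 CPM). *Maf* was higher in 5 of 11 classes, among them gut-like cells (6.37 and 9.26 to 16.1 and 12.8 CPM, log2 fold change 0.86). *Dlx6* was higher in neuromesodermal progenitor-like cells, with 2 and 8 WT against 16 and 20 null UMIs. This is a ratio of 4.10 with an exact interval of 1.99 to 9.26. Here too *Dlx6* passed the filter on low counts only through its null libraries. The call of *Dlx6* was lost without WT replicate 1 (adjusted p = 0.18 by edgeR), and that of *Msx1* in the neuromesodermal progenitor-like cells without WT replicate 1, WT replicate 2 or null replicate 2 (0.34, 0.092 and 0.18).

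*Fhl2* fell in 2 of the 3 mesenchyme-like classes. In the mesenchyme 2-like class it went from 28.1 and 33.6 to 16.4 and 14.5 CPM (log2 fold change -0.9995 ± 0.098, adjusted p = 1.9e-08 by edgeR). In the *Prrx1*/*Hand2* mesenchyme-like class it went from 14.3 and 17.5 to 11.3 and 12.3 CPM (-0.41 ± 0.094, adjusted p = 0.011). In the *Tbx4*/*Capn6* class it had 11.9 and 13.8 against 11.5 and 12.6 CPM, which overlapped (-0.07 ± 0.21, adjusted p = 0.95). The call in the *Prrx1*/*Hand2* class was lost without WT replicate 2 (-0.26, adjusted p = 0.13) or null replicate 1 (adjusted p = 0.11), and that in the mesenchyme 2-like class was kept in each case. *Msx2* fell in endothelium-like cells from 8.15 and 6.12 to 2.21 and 2.63 CPM (-1.56 ± 0.27, adjusted p = 0.0071), and *Gbx2* in gut-like cells from 3.63 and 5.25 to 2.14 and 2.11 CPM (-1.09 ± 0.23, adjusted p = 0.0013).

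For some genes a smaller part of all UMIs lay in the ectoderm-like class in null cells. Of all *Dlx5* UMIs, 72.7% lay in the class in WT and 52.1% in null cells, of *Dlx6* 70.6% and 46.5%, of *Dlx3* 72.8% and 56.2%, and of *Maf* 18.9% and 12.1%. The UMIs of *Dlx5* in the class were 1061 in WT and 1028 in null cells, those of *Dlx6* 144 and 161 and those of *Maf* 378 and 408, while their UMIs over all cells were higher in null, at 1460 and 1974, 204 and 346, and 1999 and 3360. *Dlx3* had 742 and 529 UMIs in the class. *Msx2* had 23.4% and 23.8%, and *Gbx2* 1.09% and 1.70%. The class itself held 5.74% of all UMIs in WT and 5.67% in null cells.

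Subclusters of the ectoderm-like class were formed without the 9 genes and *Grhl3*, and the genotypes filled them unequally. A border-like subcluster led by *Cited4*, *Cldn3* and *Sfn* held 23 and 14 WT and 0 null cells, with a median of 58477 UMIs per cell. Its cells held *Fhl2* at 229 and 175 CPM, *Dlx5* at 123 and 139 CPM, *Maf* at 50.0 and 82.0 CPM and *Dlx6* at 25.4 CPM in both libraries. *Trp63* was at 25.4 and 17.6 CPM there. In a subcluster led by *Gpx2*, *Mt1* and *Igfbp5* (66 and 48 WT, 21 and 17 null cells) *Trp63* was higher and *Dlx5*, *Fhl2* and *Dlx6* lower than in the border-like one, with *Trp63* at 114 and 112 CPM, *Dlx5* at 7.90 and 6.81 CPM, *Fhl2* at 13.8 and 14.0 CPM and *Dlx6* at 0.293 and 0.425 CPM in WT. A subcluster led by *Batf3*, *Atf3* and *Sel1l3* was mostly null (11 and 11 WT, 109 and 103 null cells) and held *Fhl2* at 39.9 and 53.1 CPM, *Maf* at 23.9 and 22.8 CPM, *Dlx5* at 36.0 and 41.3 CPM and *Trp63* at 61.5 and 61.2 CPM in null cells. A subcluster led by *Pou5f1* and the haemoglobin genes *Hba-x* and *Hbb-y*, with *Grhl3* also among its leading genes, was mostly WT (67 and 65 WT, 2 and 4 null cells), with a median of 58493.5 UMIs per cell. In WT it held *Fhl2* at 66.9 and 47.6 CPM, *Dlx5* at 42.9 and 31.6 CPM, *Trp63* at 43.8 and 54.1 CPM and *Dlx6* at 2.27 and 1.67 CPM. Levels of the whole class are sums over these subclusters, and fewer cells of a kind and less RNA per cell cannot be told apart in them.

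Only 2 subclusters had 20 cells in every library. In the streak-like one, led by *Fgf8*, *Cyp26a1* and *T* (45 and 32 WT, 62 and 52 null cells), 4 of 9 genes were lower in null cells, against 2.76% of all genes. *Dlx3* fell from 38.3 and 43.6 to 13.3 and 19.03 CPM (log2 fold change -1.37 ± 0.21, adjusted p = 1.1e-08 by edgeR). *Trp63* fell from 30.1 and 16.4 to 7.98 and 9.51 CPM (-1.47 ± 0.27, adjusted p = 1.0e-05), and *Msx2* from 294 and 214 to 181 and 177 CPM (-0.53 ± 0.088, adjusted p = 4.6e-07).

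*Fhl2* in that subcluster had 40.4 and 13.9 CPM in WT and 11.3 and 18.6 CPM in null libraries, which overlapped (log2 fold change -0.97 ± 0.25, adjusted p = 0.0084 by edgeR), and its value was 0.05 without WT replicate 1. *Msx2* (adjusted p = 0.19 by edgeR) and *Trp63* (0.23) also lost their calls without that library, which left *Dlx3* as 1 call, and *Fhl2* lost its call without null replicate 1 (0.30). In the subcluster led by *Flt1*, *Plac8* and *Hand1* (27 and 32 WT, 56 and 66 null cells), 2 of 6 tested genes were higher, against 1.4% of all genes: *Msx1* from 491 and 531 to 632 and 641.5 CPM (0.31 ± 0.070, adjusted p = 0.0068) and *Fhl2* from 11.8 and 11.9 to 23.8 and 30.1 CPM (1.18 ± 0.26, adjusted p = 0.0056). The call of *Msx1* was lost without WT replicate 1 (adjusted p = 0.070), that of *Fhl2* without null replicate 2 (0.078), and both with DESeq2, which kept *Dlx3* as the 1 call of the streak-like subcluster.

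Cells of the class were compared by Pearson's r of log-normalised counts, over 471 WT and 525 null cells. The cells share 2 pools and differ in depth, so r is a description. In WT cells, 9 of 36 pairs of the 9 genes had an r of at least 0.3. *Maf* and *Fhl2* had 0.56, *Msx1* and *Msx2* 0.48, *Dlx5* and *Fhl2* 0.46, *Dlx5* and *Dlx6* 0.43, and *Dlx5* and *Msx1* 0.40. *Trp63* ran against them, with -0.26 for *Fhl2*, -0.23 for *Maf* and -0.20 for *Dlx5*. In null cells 5 pairs reached 0.3: *Msx1* and *Msx2* had 0.60, *Maf* and *Fhl2* 0.40, *Dlx5* and *Dlx6* 0.40, *Dlx5* and *Maf* 0.38, and *Dlx5* and *Msx1* 0.32. After thinning to 7500 UMIs, 1 pair remained at 0.3 in each genotype, *Msx1* and *Msx2* with 0.33 in WT and 0.40 in null cells.

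**Figure D5:**
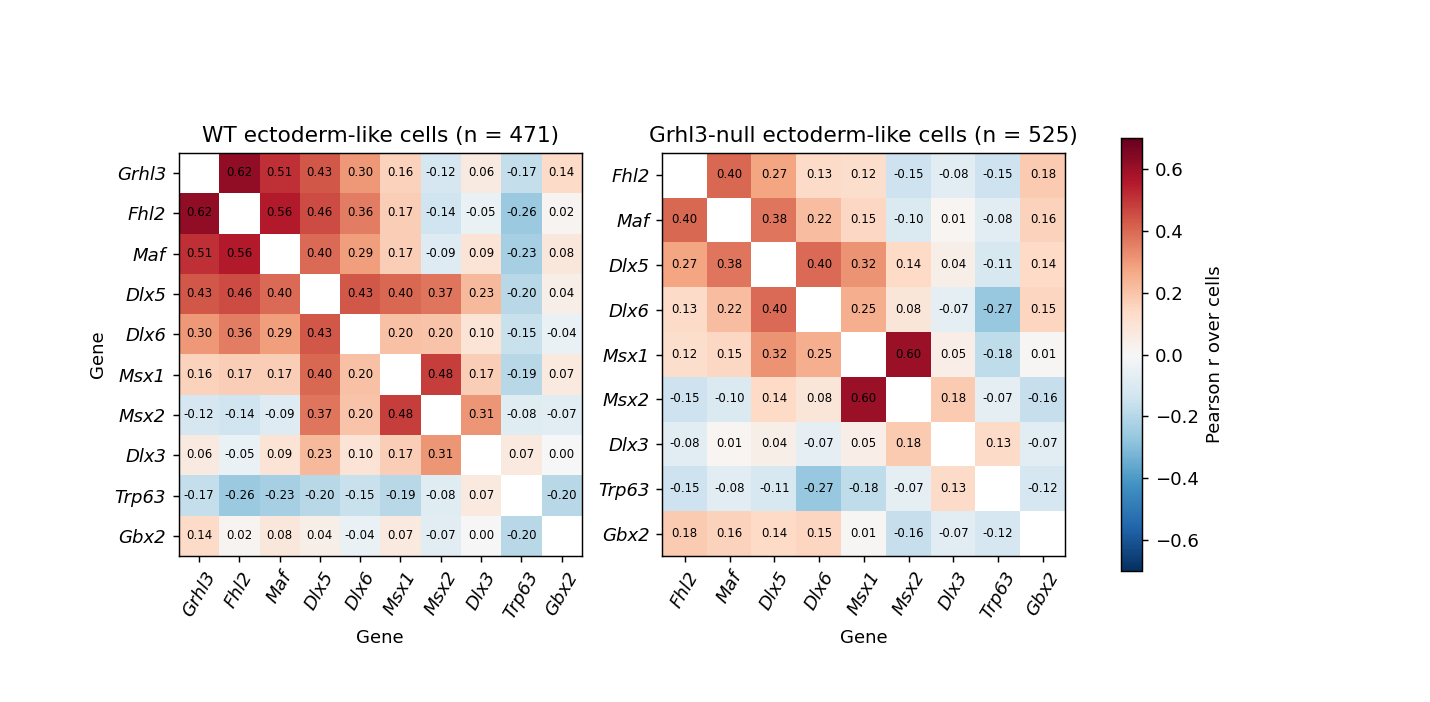
Pearson's r between pairs of genes (both axes) over WT (left, with *Grhl3* added) and null (right) ectoderm-like cells, coloured from -0.7 to 0.7. *Fhl2*, *Maf*, *Dlx5* and *Dlx6* form a red block with *Grhl3* in WT cells, *Msx1* and *Msx2* a red pair in both genotypes, and *Trp63* a mostly blue row, with *Dlx3* at 0.07 in WT and 0.13 in null cells.

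WT cells with and without a *Grhl3* UMI differed in *Maf*, *Fhl2* and *Dlx5*, and also in *Msx1* and *Dlx6*. *Msx1* had 535 CPM with and 320.5 CPM without *Grhl3* in WT replicate 1, and 570 and 418 CPM in WT replicate 2. *Dlx6* had 7.57 and 2.96 CPM in WT replicate 1, and 5.78 and 4.62 CPM in WT replicate 2. In WT replicate 1, *Maf* was found in 42.7% of the 124 cells with *Grhl3* (95% exact interval 33.9% to 51.9%) and in 11.1% of the 126 cells without (6.21% to 17.9%), with levels of 20.4 and 2.76 CPM. *Fhl2* was found in 70.2% and 34.1% of these cells, with levels of 79.2 and 16.6 CPM, and *Dlx5* in 79.0% and 42.1%, with levels of 54.7 and 23.2 CPM. *Trp63* was found in 70.2% and 62.7%, at 57.6 and 62.1 CPM. *Msx2* was found in 74.2% and 74.6%, but its level was lower in cells with *Grhl3*, at 99.2 against 119 CPM.

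In WT replicate 2, *Maf* was also higher in cells with *Grhl3*, at 21.8 against 3.89 CPM, *Fhl2* at 53.7 against 13.9 CPM, *Dlx5* at 43.3 against 32.8 CPM, while *Trp63*, at 61.0 against 57.6 CPM, had the other order than in WT replicate 1. Cells with *Grhl3* had a median of 62360 UMIs and those without 33121 in WT replicate 1, and the part of depth in the shares was not tested beyond thinning. After thinning, the shares of *Maf* in WT replicate 1 were 11.3% and 2.38% and those of *Fhl2* 36.3% and 8.73%. Those of *Dlx5* were 28.2% and 15.1%, while those of *Trp63* were 29.0% and 29.4%. In WT replicate 2, the thinned shares of *Dlx5* were closer to each other, at 26.1% and 21.7%. There, those of *Maf* were 12.2% and 3.77% and those of *Fhl2* 23.5% and 9.43%. *Msx2* was lower in cells with *Grhl3* in WT replicate 2 too, at 94.5 against 141 CPM. Its thinned shares were 38.7% and 46.0% in WT replicate 1 and 41.7% and 44.3% in WT replicate 2.

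Of the 3 genes with the highest r to each member over WT ectoderm-like cells, among 10893 candidates, *Msx2* was most like *Bambi* (r 0.72), *Tbx3* (0.69) and *Id1* (0.64). *Msx1* was most like *Axin2* (0.60), *Zfp503* (0.60) and *Hoxaas3* (0.58), *Trp63* like *Cxcl12* (0.65), *Fermt1* (0.59) and *Pdgfa* (0.58), and *Maf* like *Fhl2*, *Car2* (0.55) and *Zic2* (0.54). *Dlx5* was most like *Pax3* (0.52), *Cldn3* (0.50) and *Gjb5* (0.49), and *Dlx6* like *Cited4* (0.49), *Fgf17* (0.49) and *Uchl1* (0.44). *Dlx3* and *Gbx2* reached at most 0.35 (*Sp6*) and 0.33 (*Epha5*). Over the mean levels of 16 classes, *Dlx5* was most like *Grhl3* (r 0.95 over 16 points) and *Dlx3* (0.92), and *Trp63* like *Ntf5* (0.99).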

How the data were processed

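Single-cell RNA-seq of 4 libraries, 2 per genotype, was analysed. The authors aligned reads to mm10 and counted UMIs with Cell Ranger, and deposited whole-number UMI counts per gene and cell. Cells with at least 3000 genes, 7500 UMIs and at most 7% mitochondrial UMIs were kept. Clusters came from Seurat 5.3.0 (SCTransform with sctransform 0.4.2, 3000 features, 30 principal components, 20 neighbours, resolution 0.4, with 0.8 for the finer clusters), and were named where at least 3 markers were among the leading 30 genes. Doublets were kept and scored with Scrublet in scanpy 1.11.5, and removing the top 5% per library was an alternative.

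Counts were summed per library and class, filtered with filterByExpr, scaled by TMM and tested with edgeR 4.0.16 (quasi-likelihood, robust, R 4.3.3), with Benjamini-Hochberg adjustment over all genes of a class and a threshold of 0.05. Classes with fewer than 20 cells in a library were not tested. Differences between effects were tested as interactions with the library as a block. In a simulation on the ectoderm-like class, 199 of 200 genes changed by 2 on the log2 scale were recovered among 12571 genes, with 11 wrong calls. Thinning drew 7500 UMIs per cell. Cells were called male with at least 2 Y-linked UMIs and female with at least 3 *Xist* UMIs.

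The genes named are the 9 members, *Grhl3*, *Tfap2a* and *Epcam* as checks, those genes of the fixed lists that passed the test, and for each member the 3 genes with the highest r. Members and lists were chosen with earlier results of these data known. The alternatives were DESeq2 1.42.0, its size factors, no filter, each library left out, a replicate block, other clusterings, a *Tfap2a* and *Epcam* gate, a 5% mitochondrial limit and each sex. Libraries of the same number were not paired (r 0.01 between their deviations over 10950 genes). Intervals cover counting error only. Some results of the paralogue and marker lists are not reported here.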

Additional observations from a re-analysis of the deposited data

Results flagged for a closer look

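Effects that differed between cell classes, by a test of the interaction, were singled out first. The effect in ectoderm-like cells minus that in neuroepithelium-like cells, on the log2 scale, was -2.03 for *Dlx5*, -3.74 for *Dlx6*, -0.89 for *Msx1*, -0.97 for *Msx2*, 0.94 for *Gbx2*, -1.08 for *Maf* and -1.79 for *Fhl2*. Against all other cells it was -1.08 for *Dlx3*, -1.29 for *Dlx5*, -1.46 for *Dlx6*, -0.39 for *Msx1*, 0.65 for *Gbx2* and -0.77 for *Maf*. In neuroepithelium-like cells *Dlx6* rests on 5 WT UMIs. *Dlx5*, *Maf*, *Fhl2* and *Msx2* showed no increase there once the *Gadd45a*/*Pax3*/*Foxd3* cells were left out, and the interaction was not tested without them. The make-up of all other cells differed between the genotypes.

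Effects that differed between male and female ectoderm-like cells were -0.65 for *Dlx5*, -1.04 for *Msx1* and -0.99 for *Msx2*, male minus female. Sex and embryo cannot be told apart within these pools.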

How the results depend on the processing

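In ectoderm-like cells, 2 genes were lower and 0 higher. These became 0 lower with DESeq2, which called 4.37% of all genes in either direction. They also became 0 lower with a limit of 1 on the log2 fold change (1.85% of all genes called). They became 6 lower and 1 higher in male cells and 2 higher in female cells. With doublets removed 1 was higher (*Gbx2*, against 6.15% of all genes). With the *Tfap2a* and *Epcam* gate 3 were higher (*Dlx5*, *Dlx6* and *Maf*, against 5.62%). With each library left out, the log2 fold change ran from -0.631 to -0.344 for *Dlx3* and from -0.248 to -0.214 for *Trp63*. It ran from -0.794 to -0.349 for *Fhl2*, from -0.213 to -0.00532 for *Msx1* and from 0.157 to 0.588 for *Gbx2*. Directions turned for *Dlx5* (-0.131 to 0.0831 over the libraries left out, 0.0061 without the members in the clustering, 0.0058 without the mesenchymal subcluster, 0.31 with the gate and 0.16 in female cells), *Maf* (-0.0806 to 0.286, -0.19 with log-normalised counts, -0.18 in male and -0.0516 in female cells), *Dlx6* (-0.31 in male cells), *Msx2* (-0.53 in male cells) and *Msx1* (0.30 in female cells). The cause was not tested.

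In the other classes, 5 lower and 16 higher became 2 and 9 with DESeq2. With a replicate block they became 8 and 22, and 8 were lower with adjustment over all classes. The shares of all genes called under these settings are not given, so these counts are not results about the 9 genes. Over the libraries left out, *Maf* ran from 0.435 to 1.31 in paraxial mesoderm-like cells and *Fhl2* from -1.13 to -0.863 in the mesenchyme 2-like class. The block changed no call in ectoderm-like cells, where 2 were lower (*Dlx3* -0.48, *Trp63* -0.23), against 1271 of 12590 genes lower. In the streak-like subcluster 4 were lower, against 2.76% of all genes, and in the *Flt1*/*Plac8*/*Hand1* one 2 were higher, against 1.4%. These became 1 and 0 with DESeq2, whose share of all genes there is not given. Over the libraries left out, *Fhl2* ran from -1.48 to 0.0533 in the streak-like one. Interactions turned for *Trp63* (-3.00 to 3.61 against neuroepithelium, -0.317 to 0.0757 against all other cells) and *Msx2* (-0.0929 to 0.179 against all other cells), and neither had passed. In neuroepithelium-like cells the 7 calls kept their direction and threshold with DESeq2, adjustment over all classes and the block. Their directions also held with each library left out. *Dlx6*, among the 7, passed the filter on low counts only through its null libraries, so its kept call was close to fixed in advance. The 7 calls did not all hold in other sets of these cells. *Maf* (0.15) and *Fhl2* (0.27) did not pass in male cells, nor *Gbx2* (-0.01) in female cells. Without the *Gadd45a*/*Pax3*/*Foxd3* cells, whose clustering did not leave out the 9 genes, *Dlx5* (-1.39) and *Maf* (-0.49) turned. *Msx2* and *Fhl2* did not pass without those cells. Where a library left out leaves 1 sample in a group, that sample is assumed to vary like the other group.

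Depth limited the shares of cells. Thinned to 7500 UMIs, they were 18.7% for *Dlx3*, 22.7% for *Dlx5*, 4.25% for *Dlx6*, 78.8% for *Msx1*, 42.7% for *Msx2*, 3.40% for *Gbx2*, 7.43% for *Maf*, 29.7% for *Trp63* and 19.7% for *Fhl2* in WT ectoderm-like cells, and 1 pair of genes in WT and 1 in null cells kept an r of 0.3.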

Other observations

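Female *Gadd45a*/*Pax3*/*Foxd3* cells (31 and 28 WT, 43 and 39 null) had 6 of 7 tested genes higher in null libraries, against 5.48% of all genes. *Dlx6*, among the 6, passed the filter on low counts only through its null libraries. *Dlx5* had a log2 fold change of 1.64, *Maf* of 1.62, *Fhl2* of 1.84, *Msx2* of 0.63 and *Gbx2* of 0.86. *Gbx2* was the gene not called over both sexes (0.18). Whether the sexes differed in these cells was not tested.

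Over the mean WT levels of the 16 classes, among 10062 candidates, *Fhl2* was most like *Wdr1* (r 0.94), *Maf* like *Capn7* (0.91), *Msx1* like *Smtnl2* (0.90), *Gbx2* like *Tagln3* (0.89) and *Msx2* like *Sct* (0.86). These are descriptions over 16 points that share 2 pools.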
